A study of Mus musculus with 12 samples.

Results

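Protein kinase A and its nuclear targets were examined through 9 genes on 12 arrays of mouse hypothalamus: the catalytic subunit genes Prkaca and Prkacb, the related kinase gene Prkx, the regulatory subunit genes Prkar1a, Prkar1b, Prkar2a and Prkar2b, and the transcription factor genes Creb1 and Crem. The members were all probes that the array files assign to one of these symbols, 21 of 41174 probes. The arrays came from a study of voluntary alcohol drinking by adolescent male ICR mice, an outbred stock, which had a free choice of 2 bottles from 3 weeks of age. On days 1 to 5 both bottles held water for all mice. After that, controls had water in both bottles, and alcohol mice had water and either 5% or 10% alcohol. Brains were taken on day 51 per the sample labels and on day 57 per the series text.

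Water pools each held equal RNA of 3 mice, 9 mice in all, and the 9 alcohol pools held 1 to 3 mice each, 19 in all. The labels sort the alcohol pools by drinking into low drinkers, early high drinkers and late high drinkers, 3 pools each. Per the study's description of the pooling, pools of mice that drank more held fewer mice each than pools of mice that drank less, so pool size and drinking cannot be told apart between high and low drinkers. The labels do not give the alcohol concentration or the number of mice of each alcohol pool. Stock, sex and housing with 2 bottles were shared by all groups, and the drinking groups were formed from what the mice chose to drink, not by assignment. Each of 3 slides carried 4 arrays. All water pools shared slide 1 with the first low drinker pool. On slide 2 were the remaining low drinker pools and the first 2 of the early high drinkers, and on slide 3 the last early high drinker pool and all late high drinker pools. Water pools were thus on slide 1 alone, which was scanned on another day than the other slides. The defining neuropeptide genes of the hypothalamus (Pomc, Agrp, Avp, Oxt, Hcrt, Pmch and Trh) were well above background on all arrays, 7 of 7.

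Protein kinase A is held inactive as a complex of regulatory and catalytic subunits. When cyclic AMP binds the regulatory subunits, the catalytic subunits are freed and phosphorylate many proteins, among them the transcription factor CREB, which then drives genes with a cyclic AMP response element. In the hypothalamus this route carries signals of many peptide and amine receptors, and in the brain at large it has long been studied in relation to alcohol drinking.

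The probes of a gene bind different stretches of its transcript, and for several members they gave different values across the pools, so the stretch each probe reads is part of the finding. Shown are 4 of these 60-base probes, the upstream ones of Prkacb and Prkar1b and a dim one each of Prkar2a and Creb1, each of which read differently from another probe of its gene. They are printed as the array files give them, 5′ to 3′, with the positions of build mm9. The Prkacb probe A_51_P380215 lies on the minus strand at chr3:146400907-146400966. The Prkar1b probe A_51_P185499 lies on the minus strand and covers chr5:139539265-139582627, and the Prkar2a probe A_51_P217295 lies on the plus strand and covers chr9:108647914-108649210. The latter pair span 43363 and 1297 bases of the genome with 60 bases of probe, so each reads across at least 1 exon junction. The Creb1 probe A_52_P174396 lies on the plus strand at chr1:64643886-64643945.
Prkacb A_51_P380215: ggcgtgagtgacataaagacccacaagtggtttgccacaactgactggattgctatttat
Prkar1b A_51_P185499: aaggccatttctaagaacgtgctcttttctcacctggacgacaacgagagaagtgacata
Prkar2a A_51_P217295: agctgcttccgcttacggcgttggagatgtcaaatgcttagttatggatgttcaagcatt
Creb1 A_52_P174396: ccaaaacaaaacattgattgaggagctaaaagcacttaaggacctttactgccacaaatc

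For Prkx the study designed a pair of primers for real-time PCR, and the array probe A_51_P179864, on the minus strand at chrX:75007688-75007747, was set against them. The first 16 bases of the reverse primer's complement are the last 16 bases of the probe, in capitals here, so the PCR product ends just past the probe and overlaps it. The forward primer does not lie in the probe.
Prkx forward primer: atgctgagaaccaacccaac
Prkx reverse primer: gcacAACTCTCCCTGGACTC
Prkx probe, last 20 bases: ctctGAGTCCAGGGAGAGTT

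Values below are log2 signal intensities minus the 75th percentile of the same array, so that 0 is the brightness of the 75th percentile and a higher value is a brighter spot. They rank the arrays for 1 probe and not the genes, because probes differ in brightness for the same amount of RNA. Of the 21 probes, 19 could be tested in every comparison, with at least 1 for each of the 9 genes, and 18 were well above background on all 12 arrays. The exceptions were a Prkar2a probe without a value on any array (A_52_P584753, chr9:108595430-108595489), a Crem probe with a value on 6 arrays and well above background on 0 (A_52_P367026), and the Prkar2a probe A_51_P217295, which was well above background on 11. Differences were tested with limma over all probes with Benjamini-Hochberg adjustment, and each is given with its standard error (SE). The pools are the replicates, and their number limits the precision. For 3 against 3 pools, even full separation cannot give an exact permutation p below 0.1. The share of all probes with full separation is given only for alcohol below water, and other separations are descriptions. In whole tissue, less RNA per cell and fewer cells of a type cannot be told apart.

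Across the 9 genes the difference between alcohol and water was small. Prkar2b was the only 1 of the 19 tested probes past an unadjusted p of 0.05 when all 9 alcohol pools were set against the 3 water pools, against 5.53% of all 32376 probes, and no probe of any gene passed an adjusted p of 0.05 (0 of 32376, smallest adjusted p = 0.819). Of the 19 probes, 7 were higher and 12 lower in alcohol pools, with a median difference of -0.03, beside 0.03 over all probes. When late high drinkers alone were set against water, 4 of 19 probes passed an unadjusted p of 0.05, all of them lower and all of them regulatory subunits, against 15.7% of all probes. No member passed an adjusted p of 0.05 in any of the 6 comparisons made with all 12 arrays, against 0.179% of all probes for low drinkers against water, 0.0744% for high against low drinkers and 0% for the other 4 comparisons.

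**Figure D1:**
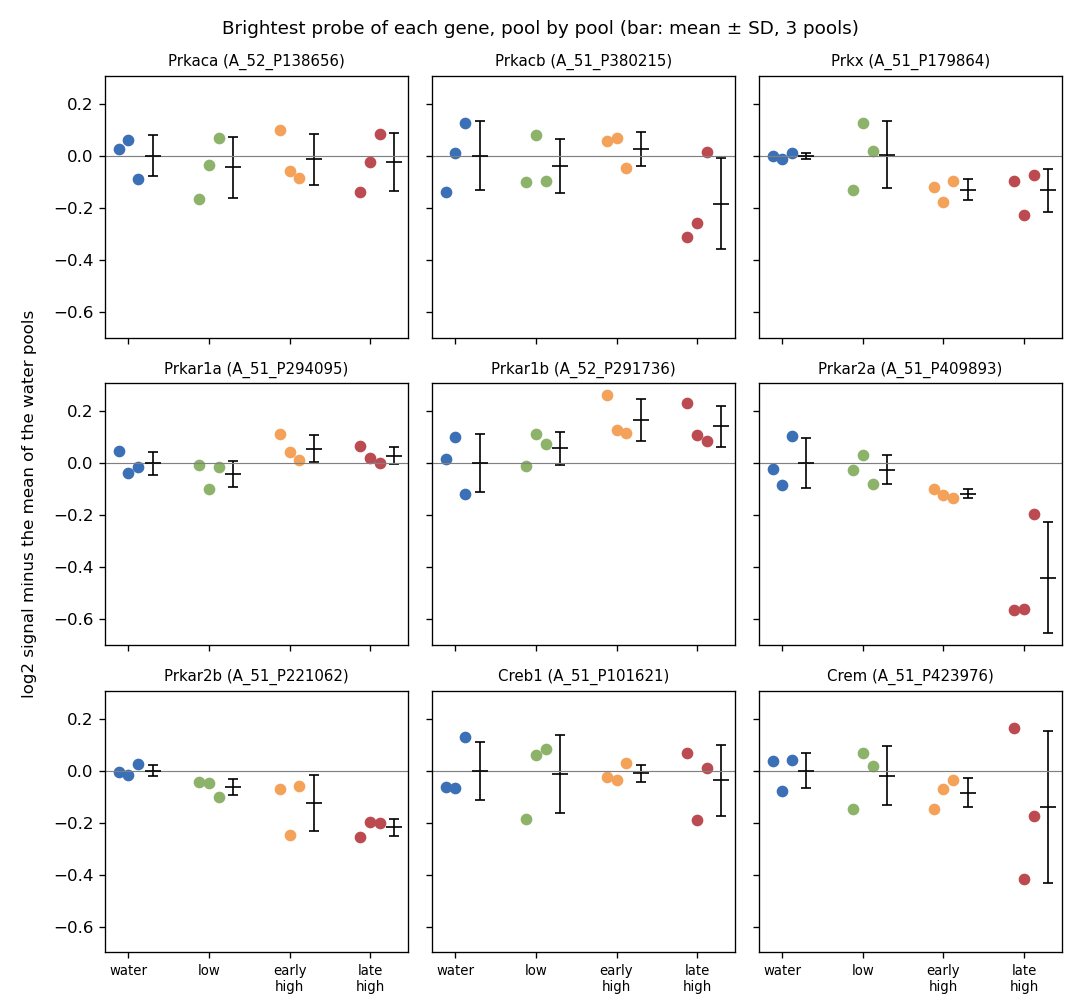
Log2 signal of the brightest probe of each gene in each of the 12 pools, minus the mean of the 3 water pools (vertical axis), by group (horizontal axis); each point is 1 pool, and the bar beside it is the mean ± SD of the group's 3 pools. Prkar2b lies lower in all 9 alcohol pools than in any water pool, Prkar2a is lowest in late high drinker pools 1 and 2, and Prkaca and Creb1 overlap between all groups.

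The catalytic subunits showed no difference past the test. Prkaca encodes the alpha catalytic subunit, the main form in most tissues. Its only probe (A_52_P138656, chr8:86520153-86520212) read 5.42, 5.46 and 5.31 in water pools 1 to 3, 5.23, 5.36 and 5.47 in low drinkers, 5.50, 5.34 and 5.31 in early high drinkers, and 5.26, 5.37 and 5.48 in late high drinkers. The 4 groups overlapped. Alcohol minus water was -0.03 (SE 0.07), and the 95% interval of -0.17 to 0.12 contains 0 (limma unadjusted p = 0.679, adjusted p = 0.940).

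Prkacb encodes the beta catalytic subunit, which is prominent in the brain, and its 2 probes gave different pictures in the late high drinkers. The probe nearer the start of the transcript (A_51_P380215, from base 1108) read 1.48, 1.63 and 1.74 in water, 1.51, 1.70 and 1.52 in low drinkers, 1.67, 1.69 and 1.57 in early high drinkers, and 1.30, 1.36 and 1.63 in late high drinkers. Late pools 1 and 2 were the lowest of the 12, while late pool 3 lay among the water pools. The probe nearer the end (A_52_P432680, from base 3461, chr3:146393334-146393393) read 1.50, 1.43 and 1.44 in water, 1.53, 1.51 and 1.39 in low drinkers, 1.50, 1.64 and 1.54 in early high drinkers, and 1.62, 1.60 and 1.50 in late high drinkers. On that probe every late pool lay above every water pool, although the closest water and late pools both read 1.50. Late minus water was -0.18 (SE 0.10) on the first probe and 0.12 (SE 0.06) on the second, and neither passed the test (limma unadjusted p = 0.101 and 0.0996, adjusted p = 0.418 and 0.416).

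Prkx encodes a kinase close to the catalytic subunits and encoded on the X chromosome. It read 0.17, 0.16 and 0.19 in water, 0.04, 0.30 and 0.19 in low drinkers, 0.05, -0.003 and 0.07 in early high drinkers, and 0.08, -0.05 and 0.10 in late high drinkers. All 6 high drinker pools lay below all 3 water pools, while the low drinker pools lay on both sides of them. The mean was 0.17 ± 0.01 in water, 0.18 ± 0.13 in low drinkers, 0.04 ± 0.04 in early high drinkers and 0.04 ± 0.08 in late high drinkers (SD, n = 3 each). Alcohol minus water was -0.09 (SE 0.07, limma unadjusted p = 0.220, adjusted p = 0.828), a ratio of 0.942. High minus low drinkers was -0.14 (SE 0.06), which also missed the threshold (limma unadjusted p = 0.0536, adjusted p = 0.329, exact permutation test with the 84 possible choices of 3 low pools among 9, 2-sided p = 0.0714). With the slide as a fixed block, alcohol minus water was -0.13 and did not pass an unadjusted p of 0.05 (limma unadjusted p = 0.285). Larger differences passed it in that fit. High minus low drinkers was -0.24 (limma unadjusted p = 0.0306, adjusted p = 0.292, 14.4% of all probes passing). Early minus water was -0.35 (limma unadjusted p = 0.0195, adjusted p = 0.599, 7.09% passing) and late minus water -0.38 (limma unadjusted p = 0.0341, adjusted p = 0.609, 7.87% passing). Without the block the latter 2 were -0.13 each (limma unadjusted p = 0.100 and 0.0955). The blocked differences from water run through low drinker pool 1, the only alcohol pool on slide 1. That pool read 0.04, beside 0.30 and 0.19 for the low drinker pools of slide 2.

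Among the regulatory subunits, Prkar2b was the 1 gene with all 9 alcohol pools below all water pools. Prkar2b encodes the type II beta subunit, a form rich in neurons and fat. Its only probe (A_51_P221062, minus strand, chr12:32643391-32643450) read 2.60, 2.59 and 2.63 in water, 2.57, 2.56 and 2.51 in low drinkers, 2.54, 2.36 and 2.55 in early high drinkers, and 2.36, 2.41 and 2.41 in late high drinkers. All 9 alcohol pools were below the lowest water pool, a separation that 1 of the 19 member probes with a value on every array showed, against 0.325% of the 29521 such probes of the array in that direction. Water pools averaged 2.61 ± 0.02 (SD, n = 3) and alcohol pools 2.47 ± 0.09 (SD, n = 9), a difference of -0.14 (SE 0.06) or a ratio of 0.910. The unadjusted p was 0.0420 and the adjusted p 0.819 with limma, and an exact permutation test with the 220 possible choices of 3 water pools among 12 gave a 2-sided p of 0.0227, where 0.00455 is the smallest it can give.

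The Prkar2b levels were ordered water, low, early high and late high drinkers from highest to lowest. Only the step from water to low drinkers separated the ranges, and the low and early high drinkers overlapped, as did the early and late high drinkers. Against water the difference was -0.06 (SE 0.06) in low drinkers, -0.13 (SE 0.06) in early high drinkers and -0.22 (SE 0.06) in late high drinkers, with limma unadjusted p of 0.315, 0.0655 and 0.00509 and adjusted p of 0.826, 0.886 and 0.154. An exact permutation test of 3 against 3 pools cannot go below 0.1. High minus low drinkers was -0.11 (SE 0.05, limma unadjusted p = 0.0663).

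The slide moved with the Prkar2b order. Within slide 1, low drinker pool 1 lay 0.04 below the mean of the water pools, written as -0.04. Within slide 2, early high minus low drinkers was -0.09, and within slide 3, late minus early high drinkers was -0.16, so each step had the same sign inside its slide. With the slide as a fixed block the alcohol difference was -0.04 and rested on low drinker pool 1, the only alcohol pool beside water pools (limma unadjusted p = 0.674). No high drinker pool shared a slide with a water pool, so in that fit the early and late high drinkers are tied to water through the low and early high drinkers that lie on 2 slides each. The Prkar2b difference from water was then -0.13 (SE 0.12, limma unadjusted p = 0.309) in early and -0.29 (SE 0.15, limma unadjusted p = 0.0881) in late high drinkers. Markers of the striatum (Drd1a, Adora2a and Rgs9, 3 of 3 well above background on all arrays), summed on the linear scale and then taken to log2, ranged from 1.77 to 1.96 in water, 1.83 to 1.87 in low drinkers, 1.61 to 1.93 in early high drinkers and 1.57 to 1.74 in late high drinkers. Markers of oligodendrocytes (Mbp, Mog and Mobp, 3 of 3) ranged from 6.01 to 6.25 in water, 6.19 to 6.23 in low drinkers, 6.25 to 6.42 in early high drinkers and 6.25 to 6.55 in late high drinkers. The part of either cell type in the Prkar2b values was not tested.

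**Figure D2:**
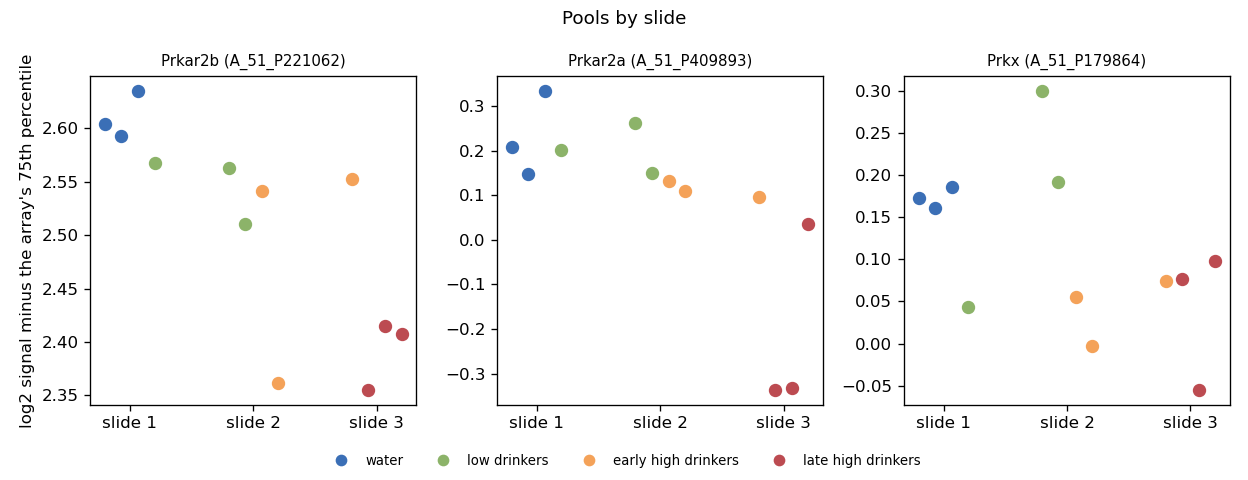
Log2 signal minus the array's 75th percentile (vertical axis, a separate scale in each panel) of the probes of Prkar2b, Prkar2a and Prkx in the 12 pools, by slide (horizontal axis); each point is 1 pool, colored by group. The 3 water pools are on slide 1 only, and the 3 late high drinker pools are on slide 3 only, where they lie below early high drinker pool 3 for Prkar2b and Prkar2a.

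Prkar2a, which encodes the type II alpha subunit, was lower in late high drinkers, chiefly in pools 1 and 2. The probe A_51_P409893 (chr9:108650854-108650913) read 0.21, 0.15 and 0.33 in water, 0.20, 0.26 and 0.15 in low drinkers, 0.13, 0.11 and 0.10 in early high drinkers, and -0.34, -0.33 and 0.03 in late high drinkers. All late pools were below all other pools, and the early pools were below all water and low drinker pools. Late minus water was -0.44 (SE 0.10), a ratio of 0.737 (limma unadjusted p = 0.00130, adjusted p = 0.116), and early minus water was -0.12 (SE 0.10, limma unadjusted p = 0.262). High minus low drinkers was -0.25 (SE 0.09, limma unadjusted p = 0.0143, adjusted p = 0.228), for which the exact permutation test gave a 2-sided p of 0.0952 and the fit with slide as a fixed block -0.24 (limma unadjusted p = 0.161). Late minus early was -0.32 (SE 0.10, limma unadjusted p = 0.00884, adjusted p = 0.332), and -0.31 with the block (limma unadjusted p = 0.0846).

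A second Prkar2a probe 878 bases upstream (A_52_P367583, chr9:108649976-108650035) showed the same 2 pools lowest. It read -2.39, -2.41 and -2.31 in water, -2.30, -2.01 and -2.36 in low drinkers, -2.38, -2.22 and -2.20 in early high drinkers, and -2.80, -2.95 and -2.38 in late high drinkers. Late pool 3 lay within the range of the water pools. Late minus water was -0.34 (SE 0.14, limma unadjusted p = 0.0409, adjusted p = 0.295), and late minus early was -0.44 (SE 0.14, limma unadjusted p = 0.0125, adjusted p = 0.335). With slide as a fixed block these were -0.56 (SE 0.36, limma unadjusted p = 0.164) and -0.51 (SE 0.22, limma unadjusted p = 0.0501). The late minus water call was lost in 7 of 12 fits that left out 1 array (any water pool, early high drinker pool 2 or 3, or late pool 1 or 2), and the difference was -0.22 without late pool 2, -0.30 without late pool 1 and between -0.36 and -0.31 without a water pool.

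The third and dimmest tested Prkar2a probe, A_51_P217295, whose sequence is given above, read -4.71, -4.63 and -4.45 in water, -4.33, -4.14 and -4.45 in low drinkers, -4.70, -4.51 and -4.46 in early high drinkers, and -4.77, -4.86 and -4.52 in late high drinkers. It was higher in low drinkers than in water by 0.29 (SE 0.12, limma unadjusted p = 0.0335, adjusted p = 0.520), the only member probe past an unadjusted p of 0.05 in that comparison, against 9.15% of all probes. With slide as a fixed block this difference was 0.27 (SE 0.18, limma unadjusted p = 0.169). The call without the block was lost in 4 of 12 fits that left out 1 array. High minus low drinkers was -0.33 (SE 0.10, limma unadjusted p = 0.00945, adjusted p = 0.200, exact permutation 2-sided p = 0.0238). Low drinker pool 2 was the highest array on this probe, and it was also the array with the brightest dim spots, its lower quartile of signal being 63.2 intensity units against 22.3 to 34.0 on the other arrays. With quantile normalization the sign turned in both comparisons, to -0.20 for low drinkers minus water and 0.10 for high minus low drinkers.

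Prkar1a encodes the type I alpha subunit, present in all tissues, and it showed no difference past limma's test. The probe A_51_P294095 (chr11:109530521-109530580) read 3.35, 3.27 and 3.29 in water, 3.30, 3.20 and 3.29 in low drinkers, 3.42, 3.35 and 3.31 in early high drinkers, and 3.37, 3.32 and 3.30 in late high drinkers. All high drinker pools lay above all low drinker pools, with a difference of 0.08 (SE 0.05, limma unadjusted p = 0.103, adjusted p = 0.400). The exact permutation test of that difference gave a 2-sided p of 0.0238, where 0.0119 is the smallest it can give. Over all pools, alcohol minus water was 0.01 (SE 0.05), with a 95% interval of -0.09 to 0.12.

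Prkar1b encodes the type I beta subunit, a form found mainly in the nervous system, and only its upstream probe was lower in late high drinkers past an unadjusted p of 0.05. The probe across an exon junction in the earlier part of the transcript (A_51_P185499, from base 457) read 0.96, 0.92 and 1.08 in water, 0.84, 1.07 and 0.85 in low drinkers, 0.87, 0.96 and 0.91 in early high drinkers, and 0.51, 0.47 and 0.85 in late high drinkers. Late minus water was -0.37 (SE 0.11), a ratio of 0.771 (limma unadjusted p = 0.00560, adjusted p = 0.156), and late minus early was -0.31 (SE 0.11, limma unadjusted p = 0.0169, adjusted p = 0.351). With slide as a fixed block these were -0.50 (SE 0.27, limma unadjusted p = 0.0989) and -0.30 (SE 0.16, limma unadjusted p = 0.0969). Late pools 1 and 2 were again the lowest. The probe nearer the transcript's end (A_52_P291736, from base 2203, chr5:139493566-139493625) read 4.50, 4.59 and 4.37 in water, 4.48, 4.60 and 4.56 in low drinkers, 4.75, 4.62 and 4.60 in early high drinkers, and 4.72, 4.60 and 4.58 in late high drinkers. Here late minus water was 0.14 (SE 0.08, limma unadjusted p = 0.0911) and early minus water 0.17 (SE 0.08, limma unadjusted p = 0.0523), and the late pools overlapped the water pools.

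Markers of other tissues differed between late high drinkers and water beside these Prkar2a and Prkar1b values. The summed log2 level of 4 thalamic markers was 2.77 to 3.01 in water and 3.35, 3.19 and 4.04 in late pools 1 to 3, that of 2 blood markers was 6.90 to 7.20 in water and 6.67, 6.21 and 6.62 in the late pools, and that of 3 cortical and hippocampal markers was -1.29 to -1.21 in water and -1.74, -1.42 and -1.52 in the late pools. Late pool 3, where Prkar2a and the upstream Prkar1b probe were closest to water, was the highest in thalamic markers. The part of these tissues in the subunit values was not tested.

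The difference between the probes of a gene within an array does not depend on a constant that scales the whole array, such as the 75th percentile. For Prkar1b, the upstream minus the downstream probe read -3.55, -3.67 and -3.29 in water, -3.64, -3.53 and -3.71 in low drinkers, -3.88, -3.65 and -3.69 in early high drinkers, and -4.21, -4.12 and -3.73 in late high drinkers. For Prkacb it read -0.02, 0.19 and 0.30 in water and -0.32, -0.24 and 0.13 in late high drinkers. In both genes late pools 1 and 2 had the lowest values of all 12 arrays. For Prkar2a (A_52_P367583 minus A_51_P409893) the same pools read -2.46 and -2.62, above and inside the water range of -2.65 to -2.55. Over 2440 other genes with probes at least 1000 bases apart, the median of this difference, against the mean of the water pools, was -0.06 in late pool 1 and -0.05 in late pool 2, between the extremes of -0.07 in water pool 1 and 0.17 in low drinker pool 2. A median does not show how many of those genes had gaps as large as Prkar1b and Prkacb, and they were not counted. The Prkar2a probes compared lie 878 bases apart, under that limit.

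**Figure D3:**
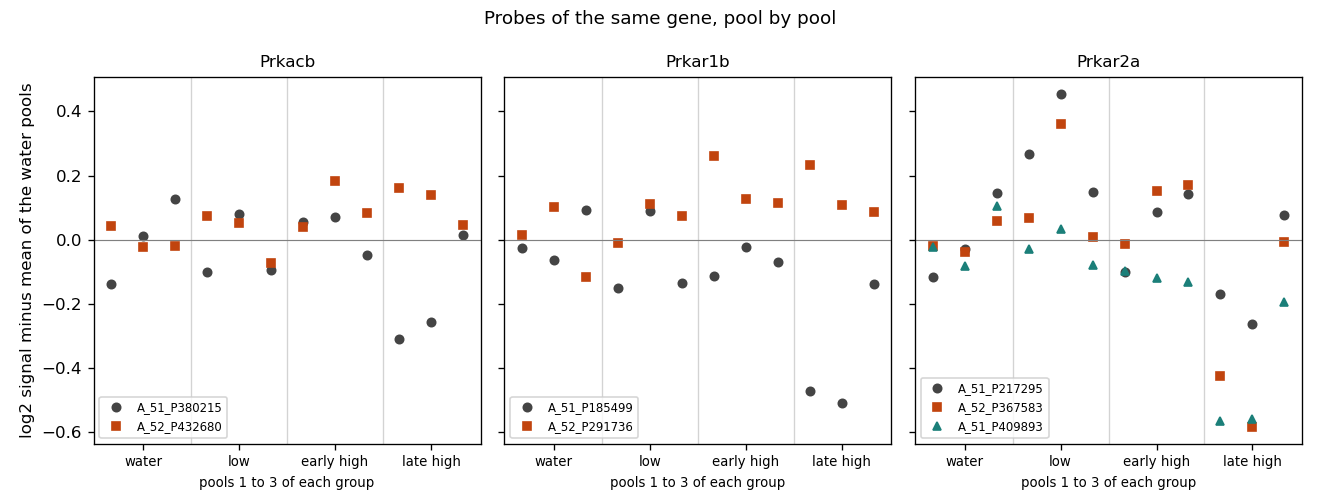
Log2 signal minus the mean of the water pools (vertical axis) of the tested probes of Prkacb, Prkar1b and Prkar2a in pools 1 to 3 of each group (horizontal axis), with 1 symbol for each probe. In late high drinker pools 1 and 2 the upstream probes of Prkacb and Prkar1b are low while the downstream probes are not, and all 3 Prkar2a probes are low, the dim A_51_P217295 the least.

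Creb1 encodes CREB, the factor that protein kinase A phosphorylates, and its best measured probe showed no difference past the test. The probe A_51_P101621 (chr1:64648229-64648288) was printed 10 times on each array, and the SD of log2 signal between its spots was 0.0397 to 0.0751, against 0.100 between the 12 arrays. It read 0.50, 0.50 and 0.69 in water, 0.38, 0.62 and 0.65 in low drinkers, 0.54, 0.53 and 0.59 in early high drinkers, and 0.63, 0.37 and 0.57 in late high drinkers. The 4 groups overlapped. The alcohol difference was -0.02 (SE 0.07), with a 95% interval of -0.18 to 0.14 (limma unadjusted p = 0.786, adjusted p = 0.963). With the slide as a fixed block it was -0.18 (SE 0.12, limma unadjusted p = 0.149). In that fit early minus water was -0.29 (SE 0.16, limma unadjusted p = 0.115) and late minus water -0.35 (SE 0.20, limma unadjusted p = 0.122).

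The other Creb1 probes were dim and higher in most alcohol pools. The probe A_52_P174396, shown above, read -4.56, -4.62 and -4.51 in water, -4.82, -3.66 and -4.24 in low drinkers, -4.43, -4.24 and -4.03 in early high drinkers, and -4.17, -4.51 and -4.40 in late high drinkers. Late minus water was 0.21 (SE 0.24, limma unadjusted p = 0.416), and it turned negative with the slide as a fixed block. The alcohol difference was 0.29 (SE 0.18, limma unadjusted p = 0.143), and the highest value was that of low drinker pool 2, the array with the brightest dim spots. Within slide 1 the sign was opposite, with low drinker pool 1 at -0.25 against the water mean. The probe A_52_P517730 (chr1:64644633-64644692) read -4.76, -4.68 and -4.37 in water, -4.36, -4.17 and -4.49 in low drinkers, -4.66, -4.40 and -4.12 in early high drinkers, and -4.30, -4.46 and -4.38 in late high drinkers. It was higher in alcohol pools by 0.23 (SE 0.11, limma unadjusted p = 0.0618, adjusted p = 0.819), with 8 of 9 alcohol pools above the water mean. Of all pairs of probes of different members, the Creb1 probe A_52_P174396 and the Crem probe A_52_P391103 were the most alike in sequence, equal at 44 of 57 aligned bases.

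Crem encodes a relative of CREB with activating and repressing forms, and its 5 tested probes lie close together at the end of the gene on chromosome 18, minus strand, between 3267049 and 3268046. The probe A_52_P391098 (3267937 to 3267996) read -1.75, -1.84 and -1.71 in water, -1.95, -1.75 and -1.81 in low drinkers, -1.95, -1.91 and -1.92 in early high drinkers, and -1.84, -2.15 and -1.89 in late high drinkers. Water pools averaged -1.76 ± 0.07 (SD, n = 3) and alcohol pools -1.91 ± 0.11 (SD, n = 9), a difference of -0.14 (SE 0.07, limma unadjusted p = 0.0774, adjusted p = 0.819), with 8 of 9 alcohol pools below the water mean. Against water it was -0.16 (SE 0.09) in early and -0.19 (SE 0.09) in late high drinkers (limma unadjusted p = 0.0989 and 0.0556).

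The other Crem probes did not follow it evenly. The brightest, A_51_P423976, read -0.89, -1.01 and -0.89 in water, -1.08, -0.86 and -0.91 in low drinkers, -1.08, -1.001 and -0.96 in early high drinkers, and -0.76, -1.34 and -1.10 in late high drinkers, so late pools 1 and 2 were the highest and the lowest of all 12 arrays. The probe A_52_P460957 read -1.28, -1.49 and -1.30 in water, -1.55, -1.36 and -1.39 in low drinkers, -1.42, -1.35 and -1.49 in early high drinkers, and -1.23, -1.63 and -1.33 in late high drinkers. The probe A_52_P391095 read -1.30, -1.53 and -1.29 in water, -1.43, -1.45 and -1.38 in low drinkers, -1.55, -1.37 and -1.44 in early high drinkers, and -1.33, -1.72 and -1.49 in late high drinkers. On both probes the 4 groups overlapped, and the late high drinkers had the widest range. The probe A_52_P391103 read -2.05, -2.12 and -2.01 in water, -2.06, -1.79 and -1.98 in low drinkers, -1.98, -1.98 and -1.99 in early high drinkers, and -1.92, -2.29 and -1.997 in late high drinkers. Alcohol minus water was -0.08 (SE 0.10) on the brightest probe, -0.06 (SE 0.08) on A_52_P460957, -0.09 (SE 0.08) on A_52_P391095 and 0.06 (SE 0.08) on A_52_P391103, none past an unadjusted p of 0.05. With 1 array left out, in the same order, they ranged from -0.12 to -0.04, from -0.13 to -0.02, from -0.17 to -0.05 and from 0.03 to 0.10, with the lowest value of each without water pool 2. The probes A_52_P391098 and A_52_P391103 overlap by 10 bases, and they differed in sign. Late pool 2 was the lowest array on all 5 probes.

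**Figure D4:**
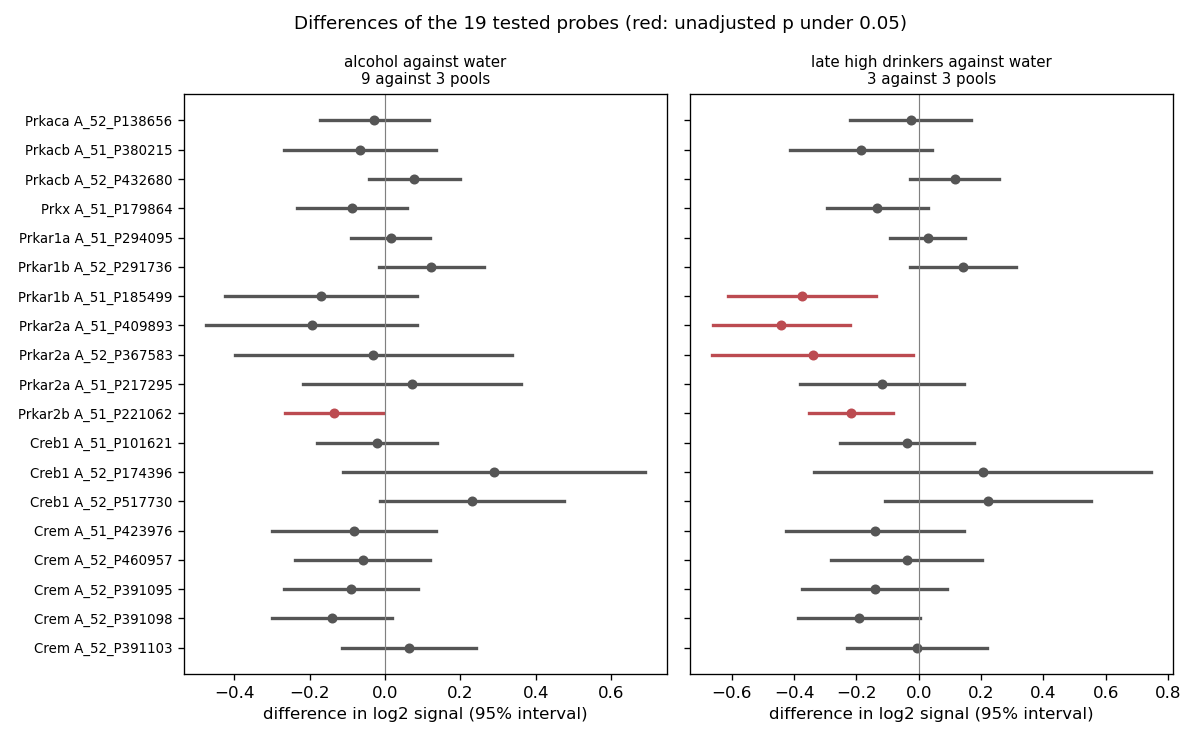
Difference in log2 signal (horizontal axis) with its 95% interval from limma for each of the 19 tested probes (vertical axis), for alcohol against water (left) and late high drinkers against water (right). Red marks an unadjusted p under 0.05, reached by Prkar2b on the left and by 4 regulatory subunit probes on the right; none passed an adjusted p of 0.05.

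At an unadjusted p of 0.05, early high drinkers against water gave 0 of 19 (4.80% of all probes), high against low drinkers gave 2 (15.5% of all probes), both of Prkar2a, and late against early high drinkers gave 3 of 20 (12.1% of all probes), on 2 probes of Prkar2a and 1 of Prkar1b. The comparisons are not independent: those with water share the 3 water pools, and late pools 1 and 2 enter late against water, high against low and late against early, so a probe called in several of them is not called on separate evidence. Members passed an adjusted p of 0.05 in these comparisons in 1 of the 12 fits that left out 1 array, the one without late high drinker pool 3, and in none of the other 11, those without late pool 1 or 2 included. For late high drinkers against water, 403 probes or 1.24% passed in that fit, among them Prkar2a A_51_P409893 (-0.56, adjusted p = 0.0106 with limma) and Prkar1b A_51_P185499 (-0.49, adjusted p = 0.0409). For late against early high drinkers, 103 probes or 0.312% passed, among them the same Prkar2a probe (adjusted p = 0.0467). With the slide as a fixed block, none of the 4 probes lower in late high drinkers passed an unadjusted p of 0.05, while the differences stayed below 0, at -0.42 for Prkar2a A_51_P409893, -0.56 for Prkar2a A_52_P367583, -0.50 for Prkar1b A_51_P185499 and -0.29 for Prkar2b. In that fit 2 of 19 member probes passed an unadjusted p of 0.05, against 7.87% of all probes: Prkx and the dim Creb1 probe A_52_P174396. The Creb1 difference was -0.97 (limma unadjusted p = 0.0288, adjusted p = 0.590). Its sign was opposite to the 0.21 of the fit without the block, where all late pools lay above all water pools.

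Of 74 other genes of the pathway, 69 had a tested probe, the brightest of each gene being used. In alcohol against water 3 of 69 passed an unadjusted p of 0.05, all higher, or 4.35% beside 5.53% of all probes, and 0 passed an adjusted p of 0.05. Among A-kinase anchors, which tether the kinase to its sites, 1 of 11 passed. This was Akap13 (0.19, SE 0.08, limma unadjusted p = 0.0319, higher than the water mean in 8 of 9 alcohol pools). Among CREB target genes 2 of 15 passed: Ppargc1a, a coactivator of mitochondrial genes (0.24, SE 0.08, limma unadjusted p = 0.0132, 9 of 9 pools), and Nr4a2, an immediate early nuclear receptor (0.23, SE 0.09, limma unadjusted p = 0.0312, 9 of 9 pools). With the slide as a fixed block their differences were -0.07, 0.14 and 0.01.

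The other pathway groups had 0 genes past the test: 0 of 3 protein kinase A inhibitors, 0 of 16 phosphodiesterases that cleave cyclic AMP, 0 of 6 other cyclic AMP receptors, 0 of 9 CREB relatives and coactivators and 0 of 9 other CREB kinases and phosphatase partners. Alcohol minus water was -0.06 (SE 0.06) for Akap5, an anchor at synapses, -0.11 (SE 0.07) for Pkia, a peptide inhibitor of the catalytic subunits, 0.03 (SE 0.07) for Pde4b, a phosphodiesterase, and 0.06 (SE 0.08) for Crebbp, a coactivator that binds phosphorylated CREB. Crtc1, a coactivator of CREB, had no tested probe. In late high drinkers against water 13 of 69 genes passed an unadjusted p of 0.05, with 8 higher and 5 lower, or 18.8% beside 15.7% of all probes.

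Patterns over the 12 arrays were compared by the mean absolute difference between centered log2 values. For the brightest probe of each member except Creb1, the nearest of 20458 probes with a named gene outside the 9 was that of Pum3 for Prkaca (0.0331), Cfl1 for Prkacb (0.0361), Mrps17 for Prkx (0.0351), Vps37b for Prkar1a (0.0233), Hdac11 for Prkar1b (0.0313), Slc35f1 for Prkar2a (0.0348), Eea1 for Prkar2b (0.0311) and Arhgap18 for Crem (0.0536). The median over all those probes was 0.109 to 0.183. Among the members themselves, the nearest pair of different genes was Prkx and Crem A_52_P391098 (0.0476), followed by Prkar1b A_51_P185499 and Prkar2a A_51_P409893 (0.0505). The 2 probes of Prkar1b lay farther apart (0.175). All arrays share slides in blocks of 4, so these likenesses are descriptions.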

How the data were processed

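Hypothalamic RNA pools were hybridized to 1-color Agilent arrays. The authors deposited signal intensity per spot, corrected for background and detrended by Feature Extraction 10.5.1.1 without scaling between arrays, and a table of the same intensity per probe. Here each log2 intensity was set relative to its array's 75th percentile, taken over 43379 non-control spots. Spots marked as non-uniform outliers, or under 2 times their error, were left out, and repeated spots were averaged per probe. Testing a probe required values on more than 50% of the arrays in each group compared. Between 67.0% and 79.3% of spots per array were well above background, and 0 were saturated.

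Alcohol was compared with water in a 2-group fit and the drinking groups in a fit of all 12 arrays, with lmFit and eBayes of limma 3.58.1 in R 4.3.3. Of 41174 probes, 25097 were named through RefSeq accessions of GRCm38.p6, and positions are those of mm9 in the array files. Exon and UTR annotation was not used here. Single probes were also tested by exact permutation over pools (Python 3.11.15, numpy 2.4.6), and scipy 1.17.1 gave the t quantiles of the 95% intervals. The members and gene lists were chosen with earlier results of these data known. All 9 members were named. Pathway genes were named where past an unadjusted p of 0.05 in alcohol against water, with Akap5, Pkia, Pde4b, Crtc1 and Crebbp in any case. Steps were tested on simulated data. Figures were drawn with matplotlib 3.10.9.

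The labels number the pools 1 to 3 in each group, but same-numbered pools did not deviate together (18 pairs, r from -0.0893 to 0.183; other pairs from -0.182 to 0.171), so the numbers were not used as pairs. Alternatives covered background correction, scaling, filters, the authors' table, slide, scan day and replicate number as blocks, the methods' t-test and each array left out. Marker lists for 10 tissues and cell types were checked. The nearest pattern of Creb1 and 1 gene each of the striatal and oligodendrocyte lists are not reported here, and the sums of those lists were taken over the remaining 3 genes. Over the 12 arrays the summed log2 level ranged from 7.24 to 7.70 for hypothalamus, -0.13 to 3.63 for anterior pituitary, 2.38 to 4.04 for thalamus, -1.74 to -1.13 for cortex and hippocampus (3 of 4 genes), -1.58 to -0.08 for choroid plexus, 3.53 to 3.79 for astrocytes, 2.94 to 3.26 for microglia and 6.21 to 7.21 for blood. Anterior pituitary markers ranged from 1.70 to 3.63 in water and 2.79 to 3.23 in low drinkers. In early high drinkers they ranged from -0.13 to 1.75 and in late high drinkers from 1.97 to 2.69, so all high drinker pools lay below all low drinker pools. The part of this tissue in the differences between high and low drinkers was not tested.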

Additional observations from a re-analysis of the deposited data

Results flagged for a closer look

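Across the 9 alcohol pools, 19 member probes were examined for a single pool far from the others, which chance alone would flag in about 1 of 20 probes. The Crem probe A_52_P391098 was the 1 found. Its value was -2.15 in late high drinker pool 2, against -1.95 in the nearest pool, a gap of 0.504 of the range of the 9 pools.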

How the results depend on the processing

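The counts of member probes past an unadjusted p of 0.05 were small and moved with the settings. For alcohol against water the 1 of 19 became 2 with quantile normalization or the mean of the 3 drinker groups, 4 with a t-test for unequal variances, and 0 without scaling, with the authors' table, without the filter on spots, and with slide (fixed or random), scan day or the replicate block. For low drinkers against water the 1 became 2 with normexp and 0 with quantile normalization, without scaling, with the authors' table, with probes well above background on all arrays, or with slide as a fixed block. For early high drinkers against water the 0 became 2 with quantile normalization and 1 with normexp, with probes well above background or with slide as a fixed block. For late high drinkers against water the 4 became 2 without scaling, with the authors' table and with slide as a fixed block. For late against early high drinkers the 3 became 5 with normexp and 0 without scaling, with the authors' table and with slide as a fixed block, where the 3 differences were -0.31, -0.51 and -0.30. For high against low drinkers it was 2 or 3 under these settings, but not always of the same probes: with slide as a fixed block Prkar2a A_51_P409893 lost its call, and Prkx and Creb1 A_52_P174396 passed beside Prkar2a A_51_P217295. With that block the share of all probes past it was 7.09% for early against water, 7.87% for late against water and 14.4% for high against low drinkers. Leaving out 1 array gave 0 to 3, 0 to 2, 0 to 1, 3 to 6, 0 to 5 and 1 to 4 in the order alcohol, low, early and late against water, high against low, late against early. The 0 of high against low came without low drinker pool 2, and the 5 without late pool 3. The pathway count of 3 became 5 with the probe of lowest p. The replicate block changed no other call by over 1.5 times.

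Without scaling, the median of all probes moved from 0.004 to 0.13 for late high drinkers against water, and from -0.03 to 0.12 for late against early. Of 644 single-probe values, 559 kept direction and side of the threshold, 59 no longer passed it, 8 newly passed it and 18 changed sign. For Prkar2b, alcohol minus water ranged from -0.15 to -0.12 with 1 array left out and passed an unadjusted p of 0.05 in 5 of 12 such fits. The differences that changed sign in alcohol against water were Prkar1a (-0.0076), Prkar1b A_52_P291736 (-0.0118), Prkar2a A_52_P367583 (0.0671) and Creb1 A_52_P174396 (-0.25) with slide or scan day as a fixed block, and Prkar2a A_51_P217295 with quantile normalization (-0.13). That probe also turned to -0.20 for low drinkers against water and 0.10 for high against low drinkers. With 1 array left out, ranges that crossed 0 were -0.0722 to 0.0025 for Prkaca, -0.003 to 0.0393 for Prkar1a, -0.0796 to 0.0387 for Prkar2a A_52_P367583 and -0.0531 to 0.0441 for Creb1 A_51_P101621. The cause of these changes was not tested.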
